A study of Mus musculus with 24 samples.

Results

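The cytosolic tRNA synthetases described here were 9 genes, named by symbol: Wars, Gars, Tars, Yars, Sars, Aars, Cars, Eprs and Iars. All 9 were found among the 31062 features of the count tables by their Ensembl identifier, and all 9 passed the filter on low counts. Poly-A RNA was sequenced from ID8 p53-/- cells, which derive from mouse ovarian surface epithelium and lack p53, so every group shares that deletion. There were 2 derivative lines, one edited at Ifngr1 (Ifngr1-KO), which encodes a chain of the receptor for interferon-gamma (IFN-gamma), and its control (sgNTC). Cells were kept attached to plastic (adherent) or in ultra-low attachment wells (ULA), and IFN-gamma (100 ng/ml) or its vehicle PBS was added 24 hours before harvest, at 48 hours after seeding. The 8 groups that result (adherent or ULA, sgNTC or Ifngr1-KO, PBS or IFN-gamma) held 3 libraries each, which the labels number as biological replicates. Each genotype was 1 line, so genotype and any other difference between the lines cannot be told apart. Dead cells were removed from ULA wells only, so detachment and that step cannot be told apart either.

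An aminoacyl-tRNA synthetase joins 1 amino acid to its own tRNAs, and so supplies the ribosome with charged tRNA. Most amino acids have separate nuclear genes for the cytosolic enzyme and for the mitochondrial one, and several cytosolic enzymes sit together in the multi-synthetase complex. Many cytosolic synthetase genes are known targets of ATF4, the transcription factor of the integrated stress response, which acts through a composite C/EBP-ATF response element. Wars, the tryptophanyl enzyme, is also known as a gene that IFN-gamma induces in many cell types.

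The promoters were searched for that element, and both the members and the motif were chosen with earlier results of these data known. Here 1 match per gene is printed with the matching letters in capitals and 11 bases on each side. Promoter windows of 300 bases (250 before and 50 after the annotated start) came from the RefSeq annotation of GRCm38 and covered 7 members. Wars and Cars had no window in that table. The element was searched as TGATGNAA on both strands, which reads TTNCATCA when it lies on the other strand. It was found in 5 of the 7 windows, those of Aars, Gars, Tars, Yars and Iars, and not in those of Eprs and Sars. Of all 32851 windows 3.97% held it. Each sequence runs 5′ to 3′ along the gene's own strand.
Aars, chr8:111033840-111033869, plus strand, capitals begin at base 10 from the start: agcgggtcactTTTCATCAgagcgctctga
Gars, chr6:55037960-55037989, plus strand, capitals begin 30 bases before the start: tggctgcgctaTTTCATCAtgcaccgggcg
Tars, chr15:11399655-11399684, minus strand, capitals begin 15 bases before the start: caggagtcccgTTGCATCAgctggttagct
Yars, chr4:129189895-129189924, plus strand, capitals begin at base 4 from the start: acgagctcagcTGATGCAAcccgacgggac
Iars, chr13:49682126-49682155, plus strand, capitals begin at base 8 from the start: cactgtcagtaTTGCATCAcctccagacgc

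The same search gave a match in 0 of 6 other cytosolic synthetases and 0 of 14 mitochondrial synthetases with a window. It gave one in 4 of 12 integrated stress response factors, 2 of 8 amino acid synthesis genes and 2 of 7 amino acid transporters. The interferon-gamma activated site, searched as TTCNNNGAA, was found in the Aars window alone among the members, against 8.30% of all windows, and did not overlap the element above. The core of the interferon-stimulated response element, searched as GAAANNGAA on both strands, was found in 0 of the 7 windows, against 8.56% of all windows. These matches are letters in a window, and no binding was measured.

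The genes lie on 9 chromosomes of GRCm38. Wars is at chr12:108860030-108894174 on the minus strand, and Gars, which charges glycine tRNA in both cytosol and mitochondria, is at chr6:55038007-55079500 on the plus strand. Tars (threonine) is at chr15:11382301-11399665, minus strand, and Yars (tyrosine) at chr4:129189760-129219607, plus strand. Sars (serine) is at chr3:108424865-108445209, minus strand, Aars (alanine) at chr8:111033144-111057664, plus strand, and Cars (cysteine) at chr7:143557230-143600090, minus strand. Eprs, which joins the glutamyl and prolyl enzymes in 1 protein, is at chr1:185363044-185428360, plus strand, and Iars (isoleucine) at chr13:49682100-49734267, plus strand. Both encoded enzymes are known parts of the multi-synthetase complex. Counting took no account of strand. Aars shares 14.3% of its exon bases with Exosc6 on the same strand, and their reads cannot be told apart there. Exosc6 had no count in any library. Whether reads in the shared bases count for Aars, and what this does to its level, was not tested. Yars shares 0.505% of its exon bases with C77080 on the opposite strand.

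Between genes, levels are given as CPM per kb, that is, counts per 1000000 library counts and per kilobase of all annotated exons. In adherent sgNTC cells given PBS, Gars was the most abundant at 260 ± 8.41 CPM per kb (SD, n = 3), followed by Sars at 155 ± 9.12 and Tars at 128 ± 3.83. Iars at 96.9 ± 1.48 and Wars at 95.9 ± 2.93 CPM per kb lay within each other's spread. Aars stood at 75.9 ± 2.14, Eprs at 58.6 ± 0.552, Yars at 43.0 ± 0.83 and Cars at 39.3 ± 0.996 CPM per kb. By this length the messages for the glycine, serine and threonine enzymes led, and that for the cysteine enzyme was the lowest of the 9. The places of Eprs and Iars depend on the length used. Per kilobase of its longest principal transcript (4906 bases, against 18102 bases for all exons), Eprs stood at 216 ± 2.04 CPM per kb, behind only Gars at 340 ± 11.0 and Sars at 223 ± 13.1. By that length Iars, at 115 ± 1.76 CPM per kb, no longer matched Wars, at 181 ± 5.55, and lay seventh of the 9. That second length was chosen after seeing the data.

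Libraries held 33494774 to 63154942 counts and each member had 1910 to 57082 counts per library, both mates of a read pair included. Mitochondrially encoded genes took 1.96% to 2.94% of counts in adherent libraries, 3.31% to 3.87% in ULA Ifngr1-KO libraries and 5.09% to 6.12% in ULA sgNTC libraries. This order is the inverse of that of the members below, and its part in the results was not tested. Of 10 markers of ovarian surface epithelium and mesothelium, 8 passed 1 CPM in at least 1 group, among them Krt8, Krt18, Krt19, Wt1 and Msln, while Krt7 stayed at or below 0.513 CPM. The summed level of these 10 was 1750 to 2240 CPM in adherent, 2620 to 2920 in ULA sgNTC and 4160 to 4520 CPM in ULA Ifngr1-KO libraries. Of 5 lymphocyte markers none passed 0.123 CPM, with Cd3e and Nkg7 at 0. Among 5 macrophage markers only Cd68 was above 1 CPM (2.00 to 23.4), with Adgre1, Ptprc and Lyz2 at or below 0.149. Of 5 endothelial markers 2 passed 1 CPM in at least 1 group, Vwf (4.51 to 83.8 CPM), which made up most of the sum, and Pecam1 (0.319 to 5.2). Cdh5 and Kdr stayed at or below 0.091. Dcn (15.2 to 98.8 CPM) made up most of the fibroblast sum while Lum was at 0. In sgNTC cells the summed macrophage list was 2.11 to 3.52 CPM attached and 5.53 to 7.82 detached, the endothelial list 5.25 to 7.53 and 24.1 to 30.4, and the fibroblast list 41.5 to 60.4 and 89.8 to 99.4 CPM. In Ifngr1-KO cells the same sums were 5.33 to 7.65 and 13.6 to 23.5, 25.4 to 40.1 and 75.1 to 85.6, and 15.4 to 20.6 and 93.1 to 98.2 CPM. Their part in the results was not tested, nor was that of the epithelial list. Of 4 erythroid markers only Alas2 reached 1 CPM, and Hbb-bs and Hba-a1 were at 0. Ifngr1 itself stood at 14.8, 16.7 and 15.4 CPM in adherent Ifngr1-KO and 42.3, 45.5 and 41.8 CPM in adherent sgNTC libraries given PBS. Replicate 3 of adherent Ifngr1-KO PBS and replicate 2 of ULA Ifngr1-KO IFN-gamma lay farther from their group mates than other libraries did. Their chi-square per gene against the mates was 20.9 to 27.5, against 5.55 to 16.1 in all other pairs within groups, so no library was a copy of a mate in its group.

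In detached cells all 9 synthetases were lower, in both lines. In sgNTC cells given PBS the fall was largest for Wars, at 6.72-fold (log2 fold change -2.75 ± 0.06, SE), and smallest for Cars, at 2.62-fold (-1.39 ± 0.07). Expression changes are log2 fold changes from edgeR's quasi-likelihood test over 14622 genes, and a gene is called, or said to rise or fall, at a Benjamini-Hochberg adjusted p under 0.05. By this rule 9 of 9 members were lower in ULA sgNTC cells given PBS, where 32.1% of all tested genes were called lower, with a median of -1.80 against 0.03 over all genes. In Ifngr1-KO cells given PBS 9 of 9 were lower as well, with 31.1% of genes called lower and a median of -1.22 against 0.00. With IFN-gamma present, 9 of 9 fell in sgNTC cells (32.0% of genes, median -1.95) and 9 of 9 in Ifngr1-KO cells (30.9%, median -1.20). Bulk RNA cannot tell fewer expressing cells from less RNA per cell.

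**Figure D1:**
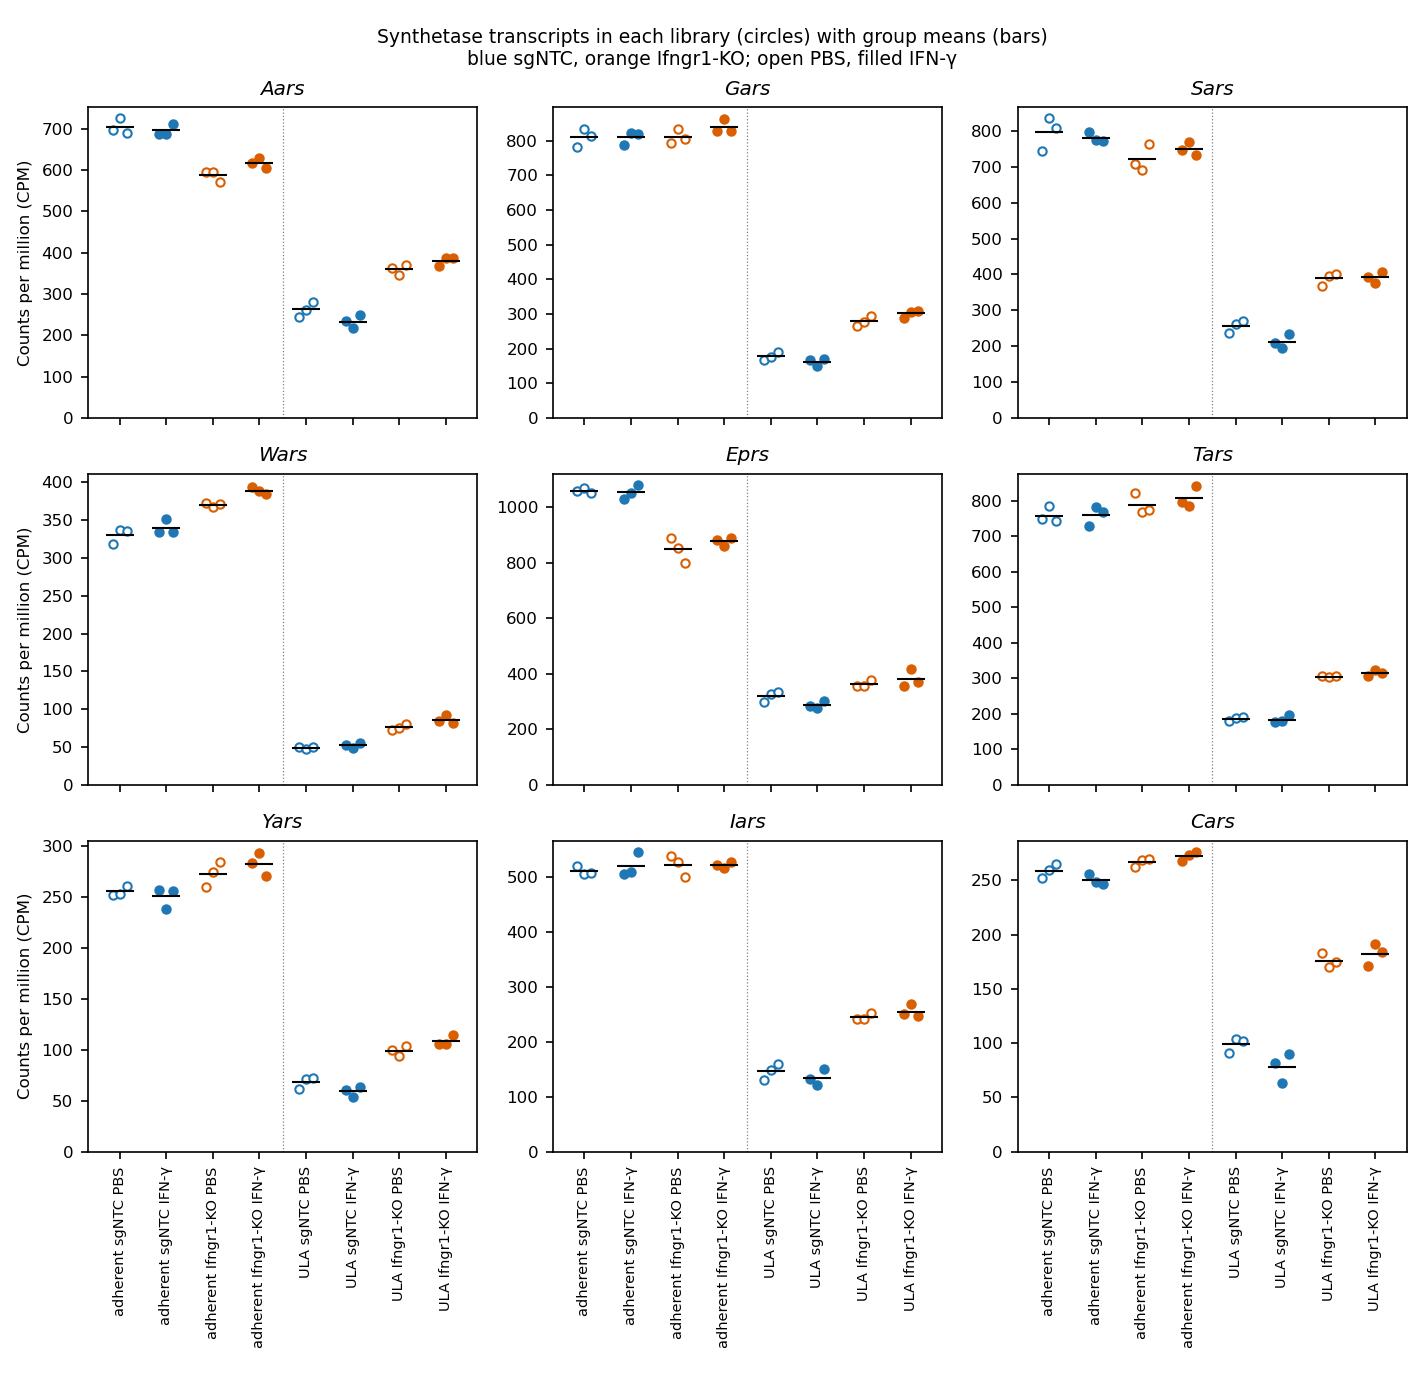
CPM of each synthetase (vertical axis, from 0, scaled by TMM library size) in the 8 groups (horizontal axis), with a circle per library, a bar at the group mean, blue for sgNTC, orange for Ifngr1-KO, open for PBS and filled for IFN-gamma. In each panel the 12 adherent libraries lie above the 6 ULA Ifngr1-KO libraries, which lie above the 6 ULA sgNTC libraries, as for Wars at 319 to 394, 72.8 to 91.8 and 47.7 to 55.7 CPM.

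Wars showed the widest range, 2.98 on the log2 scale between its highest and lowest group means. It stood at 319, 337 and 336 CPM in adherent sgNTC libraries given PBS and at 49.6, 47.7 and 50.3 CPM in the ULA ones. In Ifngr1-KO cells it went from 373, 367 and 371 to 72.8, 75.4 and 80.3 CPM, a 4.87-fold fall (-2.28 ± 0.05, adjusted p = 1.11e-27). No library of one culture overlapped the other, and 14.9% of the adherent mean was left in sgNTC against 20.5% in Ifngr1-KO cells. Over all tested genes, such separation of groups was counted only for the stepwise order and for the lines in ULA culture with PBS, both below. For attached against detached cells it was not counted.

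Gars came next, from 782, 834 and 814 to 168, 177 and 190 CPM in sgNTC cells (-2.18 ± 0.05, edgeR adjusted p = 2.19e-27). In Ifngr1-KO cells it went from 795, 833 and 805 to 266, 278 and 295 CPM (-1.54 ± 0.05). All ULA libraries were below all adherent ones, and those of sgNTC below those of Ifngr1-KO. Tars went from 747, 784 and 743 to 178, 187 and 190 CPM in sgNTC cells, leaving 24.4% of the adherent mean. In Ifngr1-KO cells Tars went from 822, 767 and 774 to 306, 302 and 305 CPM, leaving 38.6%. The cultures of Tars did not overlap in either line, nor did those of Yars. Yars stood at 252, 253 and 261 CPM attached and 61.2, 70.7 and 71.8 detached in sgNTC cells (-1.91 ± 0.06). In Ifngr1-KO cells Yars stood at 260, 274 and 284 CPM attached and 99.6, 93.3 and 104 detached (-1.46 ± 0.06).

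Sars, Aars and Cars kept the largest shares of their attached level. Sars went from 744, 835 and 809 to 236, 261 and 269 CPM in sgNTC cells, leaving 32.0%. In Ifngr1-KO cells Sars went from 708, 691 and 765 to 369, 396 and 401 CPM, leaving 54.0%, with no overlap of the cultures in either line. Aars went from 696, 727 and 690 to 245, 261 and 281 CPM in sgNTC cells, leaving 37.4%. In Ifngr1-KO cells Aars went from 595, 594 and 572 to 363, 346 and 371 CPM, leaving 61.3%. Its cultures did not overlap either. Cars went from 252, 260 and 265 to 90.8, 104 and 102 CPM in sgNTC cells, leaving 38.2%. In Ifngr1-KO cells, where its fall was the smallest of the 9 (-0.60 ± 0.07, edgeR adjusted p = 2.59e-08), Cars went from 262, 269 and 270 to 183, 170 and 175 CPM, leaving 65.9%. Even there no library of one culture reached the other.

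The pair from the multi-synthetase complex lay between these. Eprs was at 1060, 1070 and 1050 CPM in adherent and 298, 327 and 334 CPM in ULA sgNTC libraries (-1.73 ± 0.06). In Ifngr1-KO cells Eprs was at 890, 854 and 799 CPM attached and 357, 357 and 376 detached (-1.22 ± 0.06). The highest ULA library of Eprs was thus far below its lowest adherent one in both lines. Iars was at 520, 506 and 507 CPM in adherent and 130, 149 and 160 CPM in ULA sgNTC libraries (-1.80 ± 0.06). In Ifngr1-KO cells Iars was at 538, 527 and 500 CPM attached and 241, 241 and 253 detached (-1.09 ± 0.06). Again the cultures did not overlap. Eprs (-1.73) and Sars (-1.64), whose windows lacked the element printed above, also fell in sgNTC cells given PBS. The 5 members that held it ranged from -1.42 for Aars to -2.18 for Gars. Wars (-2.75) and Cars (-1.39), with the largest and the smallest fall, had no window. Any part of the element in the fall was not tested.

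**Figure D2:**
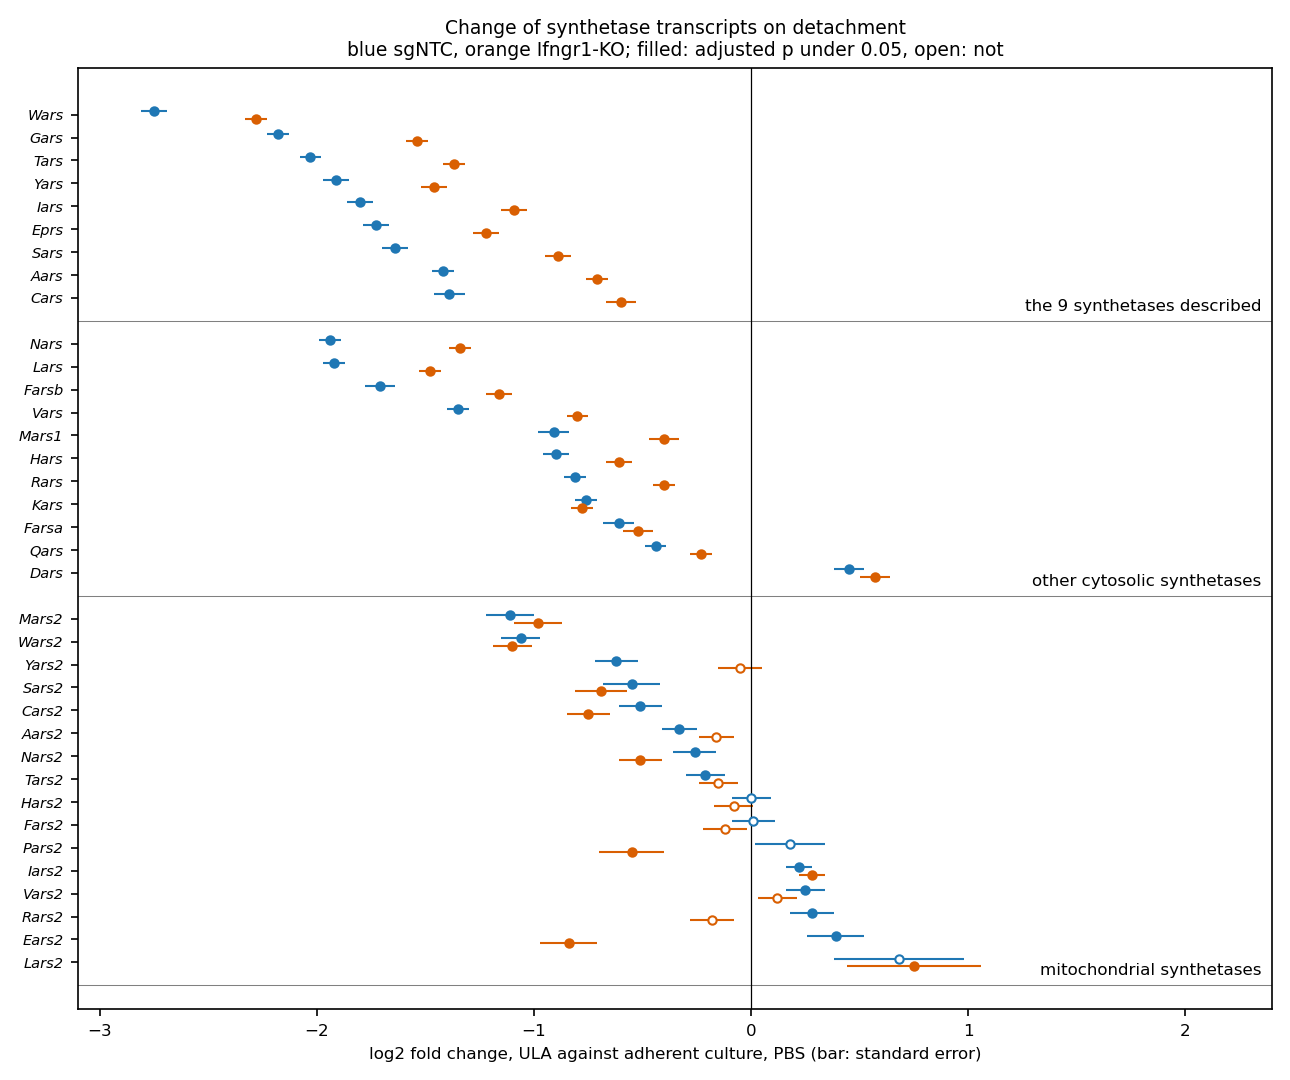
Log2 fold change of ULA against adherent culture in PBS (horizontal axis) for the 9 synthetases, the other cytosolic and 16 of the 17 mitochondrial ones (rows), with standard errors as bars, blue for sgNTC, orange for Ifngr1-KO and filled points where the adjusted p was under 0.05. All 9 described lie left of 0, between -2.75 and -1.39 in sgNTC and between -2.28 and -0.60 in Ifngr1-KO cells, while the mitochondrial ones shown lie on both sides of 0.

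The fall was smaller in Ifngr1-KO than in sgNTC cells for every member. An interaction of line with detachment was called for 9 of 9, each in the direction of a smaller fall in Ifngr1-KO cells, where 16.6% of all tested genes were called in that direction. The differences had a median of 0.66 on the log2 scale, against 0.01 over all genes. Scaled by plain library totals instead of TMM, 9 of 9 were still called, at 0.36 to 0.69, while the genes called over the whole table turned from 2426 higher and 1642 lower to 1706 higher and 2356 lower. Cars differed most (0.79 ± 0.10, adjusted p = 9.07e-07) and Yars least (0.45 ± 0.09, edgeR adjusted p = 0.000119). Sars (0.75), Aars and Iars (both 0.72), Tars (0.66) and Gars (0.65) lay above Eprs (0.51) and Wars (0.47). The 2 detachment comparisons share no library.

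The levels fall into 3 steps. For 9 of 9 members every adherent library was above every ULA Ifngr1-KO library, and every one of these above every ULA sgNTC library, an order that 5.08% of all tested genes showed. Aars, for example, spanned 572 to 727 CPM in the 12 adherent, 346 to 388 in the 6 ULA Ifngr1-KO and 217 to 281 CPM in the 6 ULA sgNTC libraries. As a ratio of levels, the lower step was narrowest for Eprs, whose 3 ranges were 799 to 1080, 355 to 418 and 276 to 334 CPM. Within the adherent step, neighbouring groups overlapped in level for Gars, Iars, Tars, Yars and Cars. Aars, Eprs and Sars had both sgNTC groups above both Ifngr1-KO groups by their means. Wars had both below, without overlap between the lines, which was not counted over all genes. Gars, Iars, Tars, Yars and Cars also had both below, by their means alone.

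Between the lines, attached cells differed by at most 0.33 on the log2 scale, in Eprs. With PBS, 1 of 9 members was higher in adherent Ifngr1-KO cells (20.1% of all tested genes were called higher) and 3 of 9 were lower (23.9% called lower), with a median of 0.03. The one that rose was Wars (0.16 ± 0.05, edgeR adjusted p = 0.00855), whose libraries did not overlap, a separation that was not counted over all genes. Eprs (-0.33 ± 0.05), Aars (-0.26 ± 0.05) and Sars (-0.14 ± 0.06) fell, and those of Sars overlapped (708, 691 and 765 against 744, 835 and 809 CPM). The call for Sars (adjusted p = 0.0463) ended under several settings, for example at 0.0605 with DESeq2 and 0.305 without adherent sgNTC PBS replicate 2. It also ended without adherent sgNTC PBS replicate 3 (0.218) and without adherent Ifngr1-KO PBS replicate 1 (0.191) or 2 (0.276). The call for Wars ended without adherent sgNTC PBS replicate 1 (0.0573). The other 5 members differed by 0.00 to 0.10, none of them called.

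In detached cells given PBS 9 of 9 members were higher in Ifngr1-KO than in sgNTC cells, where 24.5% of all tested genes were called higher, with a median of 0.63 against -0.02 over all genes. The difference was largest for Cars (0.83 ± 0.07, edgeR adjusted p = 1.17e-10), then Iars (0.74), Tars (0.72), Gars (0.65), Wars (0.63), Sars (0.61), Yars (0.55) and Aars (0.46). It was smallest for Eprs (0.18 ± 0.05, edgeR adjusted p = 0.00508). For 9 of 9 members every Ifngr1-KO library was above every sgNTC library, as for 29% of all tested genes, down to Eprs with 357, 357 and 376 against 298, 327 and 334 CPM. Since these comparisons share libraries with those of detachment, they are not independent of them.

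**Figure D3:**
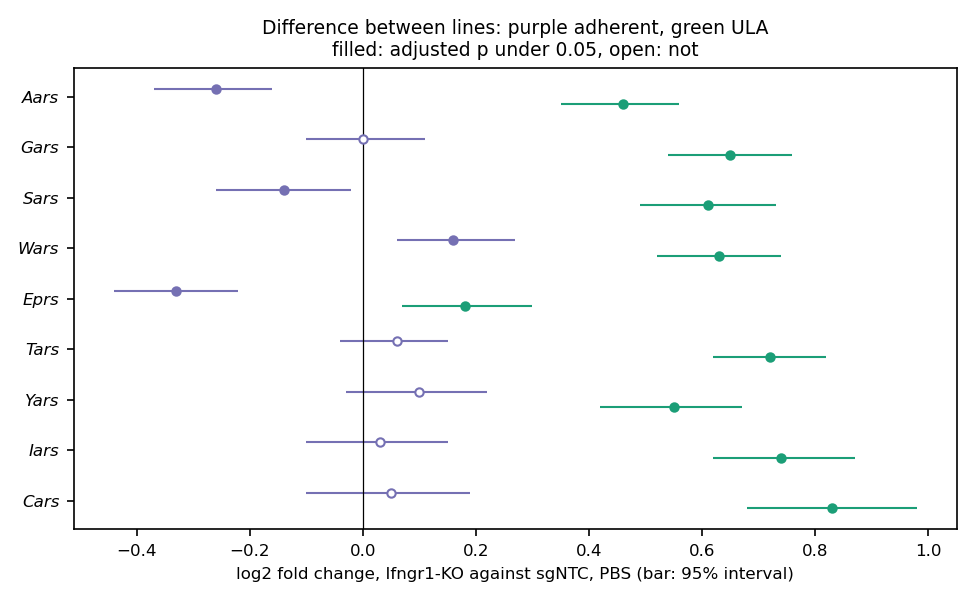
Log2 fold change of Ifngr1-KO against sgNTC cells in PBS (horizontal axis) for the 9 synthetases (rows), purple for adherent and green for ULA cells, bars for the 95% interval, filled points where the adjusted p was under 0.05. ULA values lie between 0.18 (Eprs) and 0.83 (Cars), each to the right of its adherent value, which lie between -0.33 and 0.16.

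The rest of the family moved less evenly. Of the other 11 cytosolic synthetases, 10 fell and 1 rose in sgNTC cells on detachment, with a median of -0.90, and 10 fell and 1 rose in Ifngr1-KO cells (median -0.61). The asparagine enzyme Nars (-1.94), the leucine enzyme Lars (-1.92) and Farsb (-1.71), a subunit of the phenylalanine enzyme, fell by the smallest adjusted p in sgNTC cells. The one that rose was Dars, the aspartate enzyme (0.45 ± 0.07), named here after its values were seen. The 9 members summed to 3510 ± 78.3 transcripts per 1000000 (TPM over all annotated exons, SD, n = 3) in adherent and 959 ± 41.8 TPM in ULA sgNTC cells given PBS. The other 11 summed to 3020 ± 36.4 and 1260 ± 15.5 TPM in the same groups. In Ifngr1-KO cells the members summed to 3560 ± 86.2 and 1460 ± 40.8 TPM and the others to 2440 ± 22.4 and 1350 ± 31.2 TPM. By the length of all annotated exons, the members thus held more TPM than the other 11 in adherent sgNTC cells and less in ULA sgNTC cells. Sums by the length of the principal transcript were not made. In detached cells given PBS, Ifngr1-KO against sgNTC, 4 of those 11 were higher and 3 lower. Of all 14622 genes, 3584 were higher and 3736 lower there.

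Of the 17 mitochondrial synthetases 5 rose and 8 fell in sgNTC cells (median 0.00), and 3 rose and 7 fell in Ifngr1-KO cells (median -0.16). Of all 14622 genes, 4747 rose and 4699 fell in sgNTC cells, and 4327 rose and 4543 fell in Ifngr1-KO cells. The summed level of the mitochondrial synthetases was 373 ± 36.8 TPM in adherent and 444 ± 35.4 TPM in ULA sgNTC cells given PBS. Of these sums Lars2, the leucine enzyme, alone held 119 ± 27.1 and 196 ± 32.1 TPM, a gap larger than that of the sums, and its own change was not called in sgNTC cells. It is named here after its values were seen. Wars2, the mitochondrial counterpart of Wars, fell by 1.06 ± 0.09 on the log2 scale in sgNTC and by 1.10 ± 0.09 in Ifngr1-KO cells. In sgNTC cells Mars2 (-1.11), the methionine enzyme, fell as well. The scaffolds of the multi-synthetase complex fell in 3 of 3 cases in sgNTC cells, Eef1e1 (-1.66), Aimp1 (-0.71) and Aimp2 (-0.34). In Ifngr1-KO cells 2 of 3 fell, and Aimp2 stood at 0.08 ± 0.10. All 5 translation elongation factors listed fell in both lines (medians -0.99 and -0.75), Eef1g by the most in sgNTC cells (-1.60).

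Genes of the integrated stress response fell with the members. Of 13 factors 13 fell in sgNTC cells (median -2.14) and 12 in Ifngr1-KO cells (median -1.56), against 32.1% and 31.1% of all tested genes. Atf4 fell by 2.39 ± 0.06 on the log2 scale in sgNTC and by 1.72 ± 0.06 in Ifngr1-KO cells. Its target Chac1, which degrades glutathione, fell as well (-5.07 and -3.40), and so did Ddit3 (-3.92 and -3.90), which encodes the factor CHOP. Of the 4 kinases that phosphorylate eIF2alpha and Gcn1, the partner of the amino acid sensor Eif2ak4, 2 rose and 3 fell in sgNTC cells. Eif2ak3 (-0.98), the kinase of the endoplasmic reticulum, and Eif2ak4 (-0.53) fell, and the interferon-inducible Eif2ak2 (0.71) rose.

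All 8 amino acid synthesis genes listed fell in both lines, with medians of -2.99 in sgNTC and -2.13 in Ifngr1-KO cells. In sgNTC cells Aldh18a1 (-3.06), of proline synthesis, the serine hydroxymethyltransferase Shmt2 (-3.13) and the asparagine synthetase Asns (-2.92) fell. Of 10 amino acid transporters 8 fell in sgNTC cells (median -1.99), and 8 fell and 1 rose in Ifngr1-KO cells (median -1.17). Among those that fell were the cationic amino acid carrier Slc7a1 (-3.03), the glycine carrier Slc6a9 (-2.88) and the neutral amino acid carrier Slc1a4 (-2.27) in sgNTC cells. Of all tested genes 32.1% fell in sgNTC and 31.1% in Ifngr1-KO cells. The interaction of line with detachment was called in the direction seen for the members for 8 of 11 other cytosolic synthetases, 1 of 17 mitochondrial ones, 8 of 8 synthesis genes, 9 of 10 transporters and 8 of 13 factors. In that direction 16.6% of all tested genes were called. In ULA cells given PBS, 8 of 8 synthesis genes, 8 of 10 transporters and 6 of 13 factors were higher in Ifngr1-KO than in sgNTC cells, against 24.5% of all tested genes. Atf4 was higher there by 0.76 ± 0.06 (edgeR adjusted p = 7.48e-13).

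With IFN-gamma, Wars lay near its PBS level in both cultures of sgNTC cells. In adherent sgNTC cells it stood at 334, 352 and 334 CPM with IFN-gamma against 319, 337 and 336 with PBS (0.04 ± 0.05, 95% interval -0.06 to 0.14). In ULA sgNTC cells it stood at 52.3, 48.9 and 55.7 against 49.6, 47.7 and 50.3 CPM (0.09 ± 0.05, interval -0.02 to 0.20). The libraries overlapped in both cultures, and the upper bounds limit a rise to 0.14 and 0.20 on the log2 scale. In Ifngr1-KO cells it stood at 394, 388 and 384 against 373, 367 and 371 CPM attached (0.07 ± 0.05), and at 84.3, 91.8 and 81.6 against 72.8, 75.4 and 80.3 CPM detached (0.17 ± 0.05, edgeR adjusted p = 0.48). In this line, edited at the receptor, the libraries did not overlap in either culture, and neither difference was called.

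The control line did respond in other genes. Of 10 IFN-gamma reference genes 8 rose in adherent sgNTC cells (median 1.43) and 9 in ULA sgNTC cells (median 2.39), against 0 of 10 in either culture of Ifngr1-KO cells by edgeR. In the latter 0 attached and 3 detached had an unadjusted p under 0.05, as had 1215 and 1103 of all 14622 genes. DESeq2 called 0 reference genes in both cultures. Irf1, a transcription factor, rose by 0.65 ± 0.09 attached and 1.44 ± 0.09 detached, and Irf9 by 0.78 ± 0.11 and 1.05 ± 0.10. Of 6 genes that break down tryptophan, the amino acid of Wars, 3 passed the filter, and Ido1 was at or below 0.16 CPM in every library, with or without IFN-gamma.

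**Figure D4:**
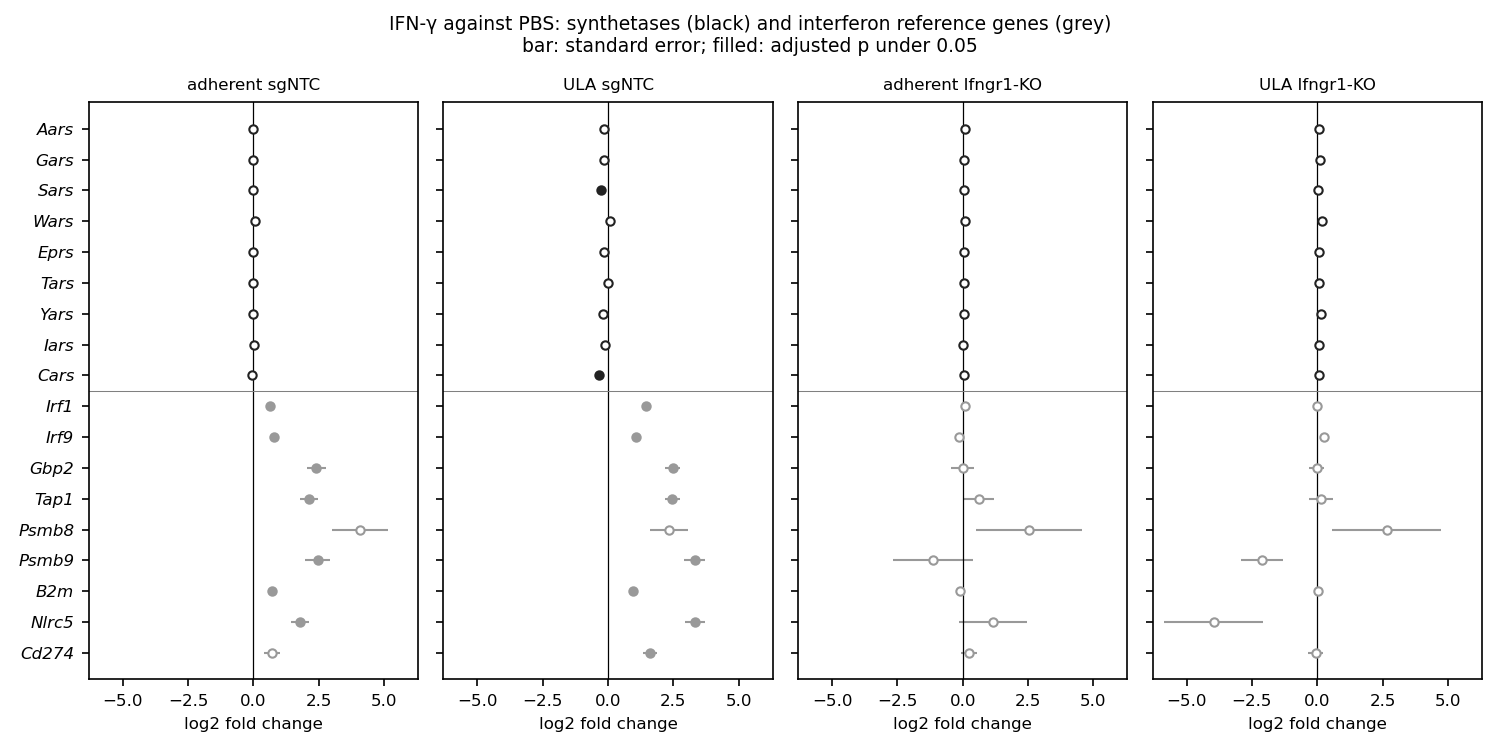
Log2 fold change of IFN-gamma against PBS (horizontal axis) in each line and culture (panels) for the 9 synthetases in black and 9 of the 10 reference genes in grey (rows), with standard errors as bars and filled points where the adjusted p was under 0.05. The synthetases lie between -0.34 and 0.17 in all 4 panels, while Irf1 stands at 0.65 and 1.44 in the sgNTC panels.

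For the family as a whole, 0 of 9 members were called either way in adherent sgNTC cells, where 0.315% of all tested genes were called. None of the 9 had an unadjusted p under 0.05 there, and DESeq2 called 0. In ULA sgNTC cells 2 of 9 fell, where 0.739% of all tested genes were called lower. Cars stood at 81.4, 63.3 and 90.2 CPM with IFN-gamma against 90.8, 104 and 102 with PBS (-0.34 ± 0.07, edgeR adjusted p = 0.0102). Sars stood at 209, 196 and 233 against 236, 261 and 269 CPM (-0.26 ± 0.06, edgeR adjusted p = 0.00903). For both, all IFN-gamma libraries were below all PBS libraries, by a small margin, a separation that was not counted over all genes. Both calls ended without ULA sgNTC IFN-gamma replicate 2, the lowest library of each (adjusted p = 0.0882 for Cars, at -0.22, and 0.103 for Sars). That for Cars also ended without the PBS library of replicate 2 in the same culture (0.0608) and with the compared groups fitted on their own (0.293), and that for Sars without PBS replicate 3 (0.0547). With PBS replicate 1 left out, 5 members were called lower, as were 209 of 14958 genes. DESeq2 called Aars lower beside Cars and Sars (-0.17, DESeq2 adjusted p = 0.0313), and 219 of all 14622 genes lower. By edgeR with all libraries, the other 7 members lay between -0.20 (Yars) and 0.09 (Wars). An unadjusted p under 0.05 was reached by 6 of all 9 members and by 1924 of all 14622 genes.

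In Ifngr1-KO cells 0 of 9 members were called with IFN-gamma attached (0.00684% of genes called) and 0 of 9 detached (0% of genes called). Their values ran from 0.00 to 0.07 attached and from 0.01 to 0.17 detached. An unadjusted p under 0.05 was reached by 0 members attached and 3 detached, Wars, Gars and Yars. Over all 14622 genes, 1215 attached and 1103 detached reached it. DESeq2 called 0 members in both cultures. Without the 2 libraries that stood apart, edgeR again called 0 members in either culture.

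The IFN-gamma response of the members did not differ detectably between the cultures of sgNTC cells, with 0 of 9 called (0.0479% of genes), 3 at an unadjusted p under 0.05 and 0 by DESeq2. Of all 14622 genes, 781 had an unadjusted p under 0.05. The widest difference among the members was that of Cars (-0.29 ± 0.10, 95% interval -0.51 to -0.08). Between the lines in adherent cells 0 of 9 were called (0.13% of genes), 0 at an unadjusted p under 0.05 and 0 by DESeq2. Between the lines in ULA cells 1 of 9 was called, where 0.54% of all tested genes were called in that direction. There 6 of the 9 had an unadjusted p under 0.05, as had 2092 of all 14622 genes. DESeq2 called 4 members higher, and 212 of all 14622 genes. The member called by edgeR was Yars (0.34 ± 0.09, adjusted p = 0.0439), at 106, 106 and 114 CPM with IFN-gamma against 99.6, 93.3 and 104 with PBS in Ifngr1-KO cells, and 60.6, 53.6 and 62.9 against 61.2, 70.7 and 71.8 CPM in sgNTC cells. Neither of the simple effects of Yars was called. Over all genes this comparison called 79 higher and 116 lower, and 55 and 151 with plain library totals. The call for Yars ended with RLE factors (0.0501), with library totals (0.0618) and with the compared groups fitted on their own (0.087). It also ended when any of 7 libraries was left out, replicates 1 and 3 of ULA Ifngr1-KO IFN-gamma, 1 and 2 of ULA Ifngr1-KO PBS, 2 of ULA sgNTC IFN-gamma, and 2 and 3 of ULA sgNTC PBS, with adjusted p-values of 0.0588 to 0.137. Without the 2 libraries that stood apart it held (0.02).

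Among themselves the members differed in the shape of the profile over the 8 groups. The root mean square distance of a member from the mean of the others, on centred log2 CPM, was 0.084 for Iars, 0.086 for Tars and 0.094 for Yars. It was 0.325 for Cars and 0.514 for Wars, the members with the smallest and the largest fall in PBS. In sgNTC cells with IFN-gamma the smallest fall was that of Aars (-1.58, against -1.68 for Cars). Among 10046 genes with at least 5 CPM in 1 group, those closest to Wars over the 8 group means were Srm (0.08), which makes spermidine, Pdia6 (0.083) and Ero1lb (0.088), of disulfide formation in the endoplasmic reticulum, Sel1l (0.096), of its protein degradation, and Psph (0.105), the last step of serine synthesis. The closest to the mean of the other 8 members were Rpl13a and Nme6 (both 0.068), Rusc2 (0.082), Slc43a3 (0.084) and Hmga1 (0.085). These distances describe 8 group means of the same libraries.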

How the data were processed

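The submitters' processing notes name Trimmomatic, HISAT2, SAMtools, featureCounts (Subread 2.1.1) and DESeq2 as tools and GRCm38 (mm10) as the build. The deposited values are raw counts per gene. Per the file headers, each mate of a pair adds 1 to a count, and strand and multi-mapping reads were not used. Of counts between 1 and 20, the even share was 61.3% to 67.2%. Here, genes passing filterByExpr (minimum count 10) were fitted in edgeR 4.0.16 (R 4.3.3, TMM, robust quasi-likelihood, a mean per group, 16 residual degrees of freedom), two-sided, adjusted by Benjamini-Hochberg over 14622 genes in each comparison. CPM use TMM-scaled totals, and TPM use the length column of the tables. DESeq2 1.42.0, other scalings and filters, a replicate block and leaving out each library were alternatives. Same-numbered libraries of different groups did not deviate together (correlations -0.0569 to 0.0592 over 84 pairs). The fitting steps were checked on simulated data. The members, gene lists, motifs and comparisons were chosen with earlier results of these data known. All members are named. A few items are not reported here. From each list up to 3 called genes with the smallest adjusted p are named, and likeness names the 5 closest genes, predicted gene models left out. Promoters come from RefSeq.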

Additional observations from a re-analysis of the deposited data

Results flagged for a closer look

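The effect of detachment differed between the lines for all 9 synthetases by the test of the interaction in PBS. The log2 differences, Ifngr1-KO minus sgNTC, were 0.72 for Aars, 0.65 for Gars, 0.75 for Sars, 0.47 for Wars, 0.51 for Eprs, 0.66 for Tars, 0.45 for Yars, 0.72 for Iars and 0.79 for Cars. The effect of IFN-gamma in ULA culture was called different between the lines for Yars, by 0.34 (edgeR adjusted p = 0.0439). That call ended under 10 of 21 alternatives, and neither simple effect of Yars was called.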

How the results depend on the processing

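With the replicate block in the model, all 28 counts of called members kept their values, among them 9 lower on detachment in each line. Under each of the 14 to 21 alternatives run for a comparison the counts stayed at 9 for detachment in the 4 settings, for the lines in ULA and for the difference of detachment between the lines, and 0 values changed direction after being called. With plain library totals the median of all genes in ULA against adherent sgNTC cells moved from 0.03 to 0.13 with PBS and from 0.05 to 0.16 with IFN-gamma, and the members then lay at -2.65 to -1.29 and -2.58 to -1.46. The number lower with IFN-gamma in ULA sgNTC cells, 2, became 5 with no filter on low counts, 1 with the compared groups alone, and 0 to 5 when 1 library was left out. With DESeq2 Aars was called lower beside those 2. The number higher in adherent Ifngr1-KO cells, 1, became 3 with library totals and 0 to 1 with a library left out. The number higher for IFN-gamma by line in ULA, 1, became 0 with RLE factors, library totals or the compared groups alone, 6 with no filter, 4 with DESeq2, 2 without the 2 libraries that stand apart (chosen after seeing the data), and 0 to 5 with 1 library left out. Over single members, 1998 values kept their call, 25 lost it and 29 gained it; the causes were not tested. Counts over all genes moved by more than 1.5 times only in IFN-gamma comparisons: 46 called in adherent sgNTC cells became 175 unfiltered, 101 with the compared groups alone and 83 with DESeq2 (25 and 28 without adherent sgNTC PBS replicate 1 or 3), 300 in ULA sgNTC cells became 652 unfiltered and 482 with DESeq2 (166 without ULA sgNTC IFN-gamma replicate 2 and 127 without PBS replicate 2), and 195 for IFN-gamma by line in ULA became 524, 467 with DESeq2 and 420 without the 2 libraries (75 without ULA Ifngr1-KO PBS replicate 1 and 78 without ULA sgNTC PBS replicate 2). Those of 19 or fewer (1 and 0 in Ifngr1-KO cells, 7 and 19 for the other interactions) became 31, 33, 63 and 180 unfiltered. They were 25, 1, 9 and 96 with DESeq2, and 0 to 3, 0 to 5, 1 to 7 and 2 to 22 with 1 library left out. Without the 2 libraries the first, second and last were 29, 6 and 38. Each member had at least 1910 counts in every library; what depth or the number of libraries contributed to the small IFN-gamma differences was not tested.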
